A study of Mus musculus with 4 samples.

Results

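The loci of 10 genes of the naive pluripotency network, Klf2, Klf4, Klf5, Esrrb, Nr5a2, Tfcp2l1, Tbx3, Prdm14, Zfp42 and Dppa3, were examined in ATAC-seq peak lists of mouse embryonic stem (ES) cells. ATAC-seq marks open chromatin, where a transposase can insert sequencing adapters. A locus is the gene body and 50 kb on either side, by the RefSeq annotation of GRCm38.p6, and its members are all listed peaks that overlap this window. The lists of the 4 libraries held 342 to 394 peaks at the 10 loci. Peaks of all libraries that overlapped were joined into regions, of which 363 of 208211 lay at the loci. The cells were wt (2 libraries) or labelled Hox-/- (2 libraries, titled BADC), which the series title describes as without any Hox function, and no other allele, strain or treatment is named for either group. Every library came from ES cells in medium with 10% serum, 100 ng/ml LIF (leukaemia inhibitory factor), 3 μM of a GSK-3 inhibitor and 1 μM of a MEK inhibitor. The labels do not say whether a genotype is a single clone or whether replicates were separate cultures, so the spread between replicates may be technical.

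In ES cells, the naive state is held by transcription factors that occupy each other's control regions and those of the core factors Oct4, Sox2 and Nanog. LIF acts through Stat3 on genes such as Klf4 and Tfcp2l1, and inhibition of GSK-3 relieves repression of Esrrb, while MEK inhibition blocks the Erk signal that drives exit from this state. An open promoter or enhancer at such a gene shows access to the DNA and is no measure of expression.

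The lists held 191704 to 216795 peaks per library. They give no read counts, so the depth is unknown, and the strength of a peak is given as its rank in its own list, where rank 1 has the highest −log10 p. The ES cell genes Pou5f1, Sox2 and Nanog had a peak within 1 kb of a gene end in all 4 libraries. Of the markers of other cells, such a peak was present in all 4 libraries at 3 of 4 primitive endoderm genes, 2 of 3 trophectoderm genes and 4 of 4 fibroblast genes. Gata4 had none in any library. Since 69.9% of 21631 protein-coding genes had such a peak in all 4 libraries, such a peak was common, and it is no measure of how many cells of another type were present. Their part in the results was not tested.

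RefSeq promoter windows, the 250 bases before and 50 after a transcript start, were at hand for 8 starts of 6 of the genes. In all 4 libraries, 7 of these 8 windows overlapped a peak, against 47.9% of 32851 windows. Esrrb and Nr5a2 each had an outer and an inner start in this set, and their peaks differed between the starts. These promoters are shown because the data separate them, and that of Zfp42 because it had the narrowest summit spread. Capitals mark the bases between the lowest and highest summit of the 4 libraries. All are on GRCm38.p6 and read along the gene from 5′ to 3′.

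Esrrb outer start, chr12:86360867-86361166, plus strand: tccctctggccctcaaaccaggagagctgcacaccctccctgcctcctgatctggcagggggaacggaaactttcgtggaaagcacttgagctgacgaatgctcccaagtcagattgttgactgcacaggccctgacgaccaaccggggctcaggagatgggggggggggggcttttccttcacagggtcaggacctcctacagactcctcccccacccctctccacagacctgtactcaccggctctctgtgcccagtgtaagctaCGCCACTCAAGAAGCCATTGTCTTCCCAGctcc
Esrrb inner start, chr12:86421394-86421693, plus strand: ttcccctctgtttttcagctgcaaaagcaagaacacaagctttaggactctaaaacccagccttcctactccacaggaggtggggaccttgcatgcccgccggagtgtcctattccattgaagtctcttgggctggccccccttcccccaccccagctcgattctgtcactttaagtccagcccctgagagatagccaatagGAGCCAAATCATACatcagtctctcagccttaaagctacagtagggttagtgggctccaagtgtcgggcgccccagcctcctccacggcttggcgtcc
Nr5a2 outer start, chr1:136960399-136960698, minus strand: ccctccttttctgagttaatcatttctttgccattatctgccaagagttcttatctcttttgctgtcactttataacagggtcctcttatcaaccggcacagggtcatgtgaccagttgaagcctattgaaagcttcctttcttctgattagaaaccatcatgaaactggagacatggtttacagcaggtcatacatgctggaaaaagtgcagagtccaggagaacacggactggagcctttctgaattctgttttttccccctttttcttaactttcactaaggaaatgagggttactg
Nr5a2 inner start, chr1:136953581-136953880, minus strand: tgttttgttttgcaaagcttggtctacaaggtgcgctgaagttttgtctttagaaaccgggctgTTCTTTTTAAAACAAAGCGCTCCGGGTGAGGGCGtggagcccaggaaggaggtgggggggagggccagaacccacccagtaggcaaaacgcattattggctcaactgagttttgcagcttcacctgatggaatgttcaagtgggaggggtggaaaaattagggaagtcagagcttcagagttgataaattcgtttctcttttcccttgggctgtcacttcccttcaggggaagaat
Zfp42, chr8:43306960-43307259, minus strand: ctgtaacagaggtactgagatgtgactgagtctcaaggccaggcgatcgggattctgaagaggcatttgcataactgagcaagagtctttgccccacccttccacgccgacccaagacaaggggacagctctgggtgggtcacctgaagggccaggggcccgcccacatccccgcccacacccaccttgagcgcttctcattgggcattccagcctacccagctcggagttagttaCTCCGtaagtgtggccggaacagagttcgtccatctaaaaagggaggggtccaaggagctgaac

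At Esrrb the inner start, 60.5 kb inside the gene, carried the stronger peak. Its ranks were 43795 and 54622 in wt and 45509 and 70539 in Hox-/-, replicate 1 first here and throughout. The outer start ranked 114589 and 111517 in wt and 152583 and 146334 in Hox-/-. Thus the inner start ranked higher than the outer in each of the 4 libraries. At Nr5a2 the outer start overlapped no peak in any library. The inner start, 6.82 kb inside the gene, ranked 28701 and 46950 in wt and 34121 and 39666 in Hox-/-, so that the genotypes overlapped. Counted from the start as base 0, summits lay at −48 to −35 for the inner start of Esrrb and at −186 to −153 for that of Nr5a2.

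The 4 summits at Zfp42 lay at bases −14 to −10. Its sequence held GGGTGTGG, a Klf motif, from base −75 to −68, and the octamer ATGCAAAT from −186 to −179, each on the opposite strand. Among all promoter windows, 3.56% held this Klf motif and 1.74% the octamer. The outer Esrrb start held TTCCNNGAA, a Stat motif, from −178 to −170 on the opposite strand, as did 4.81% of all windows. Searches on both strands for TCAAGGTCA (Esrrb and Nr5a2), TTGTNATGC (Sox beside octamer), AGGTGTGA (Tbx), GGTCTCTAA (Prdm14) and ATCAAAGG (Tcf) found no match in the 8 windows. Those letters occurred in 0.423%, 0.731%, 1.28%, 0.256% and 1.07% of all windows, respectively. No motif overlapped another in these promoters.

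The promoters also differed in base composition. CpG dinucleotides numbered 40 in the Klf4 window, 32 at Klf2, 21 at Tfcp2l1, 11 at Zfp42, 7 at both Esrrb starts and at the inner Nr5a2 start, and 2 at the outer Nr5a2 start. The median was 7 over all windows, 20 in windows with a peak in all 4 libraries and 3 in windows with none in any. Both Esrrb starts and the inner Nr5a2 start thus had the median number of all windows, and the closed Nr5a2 start had the fewest of the 8.

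**Figure D1:**
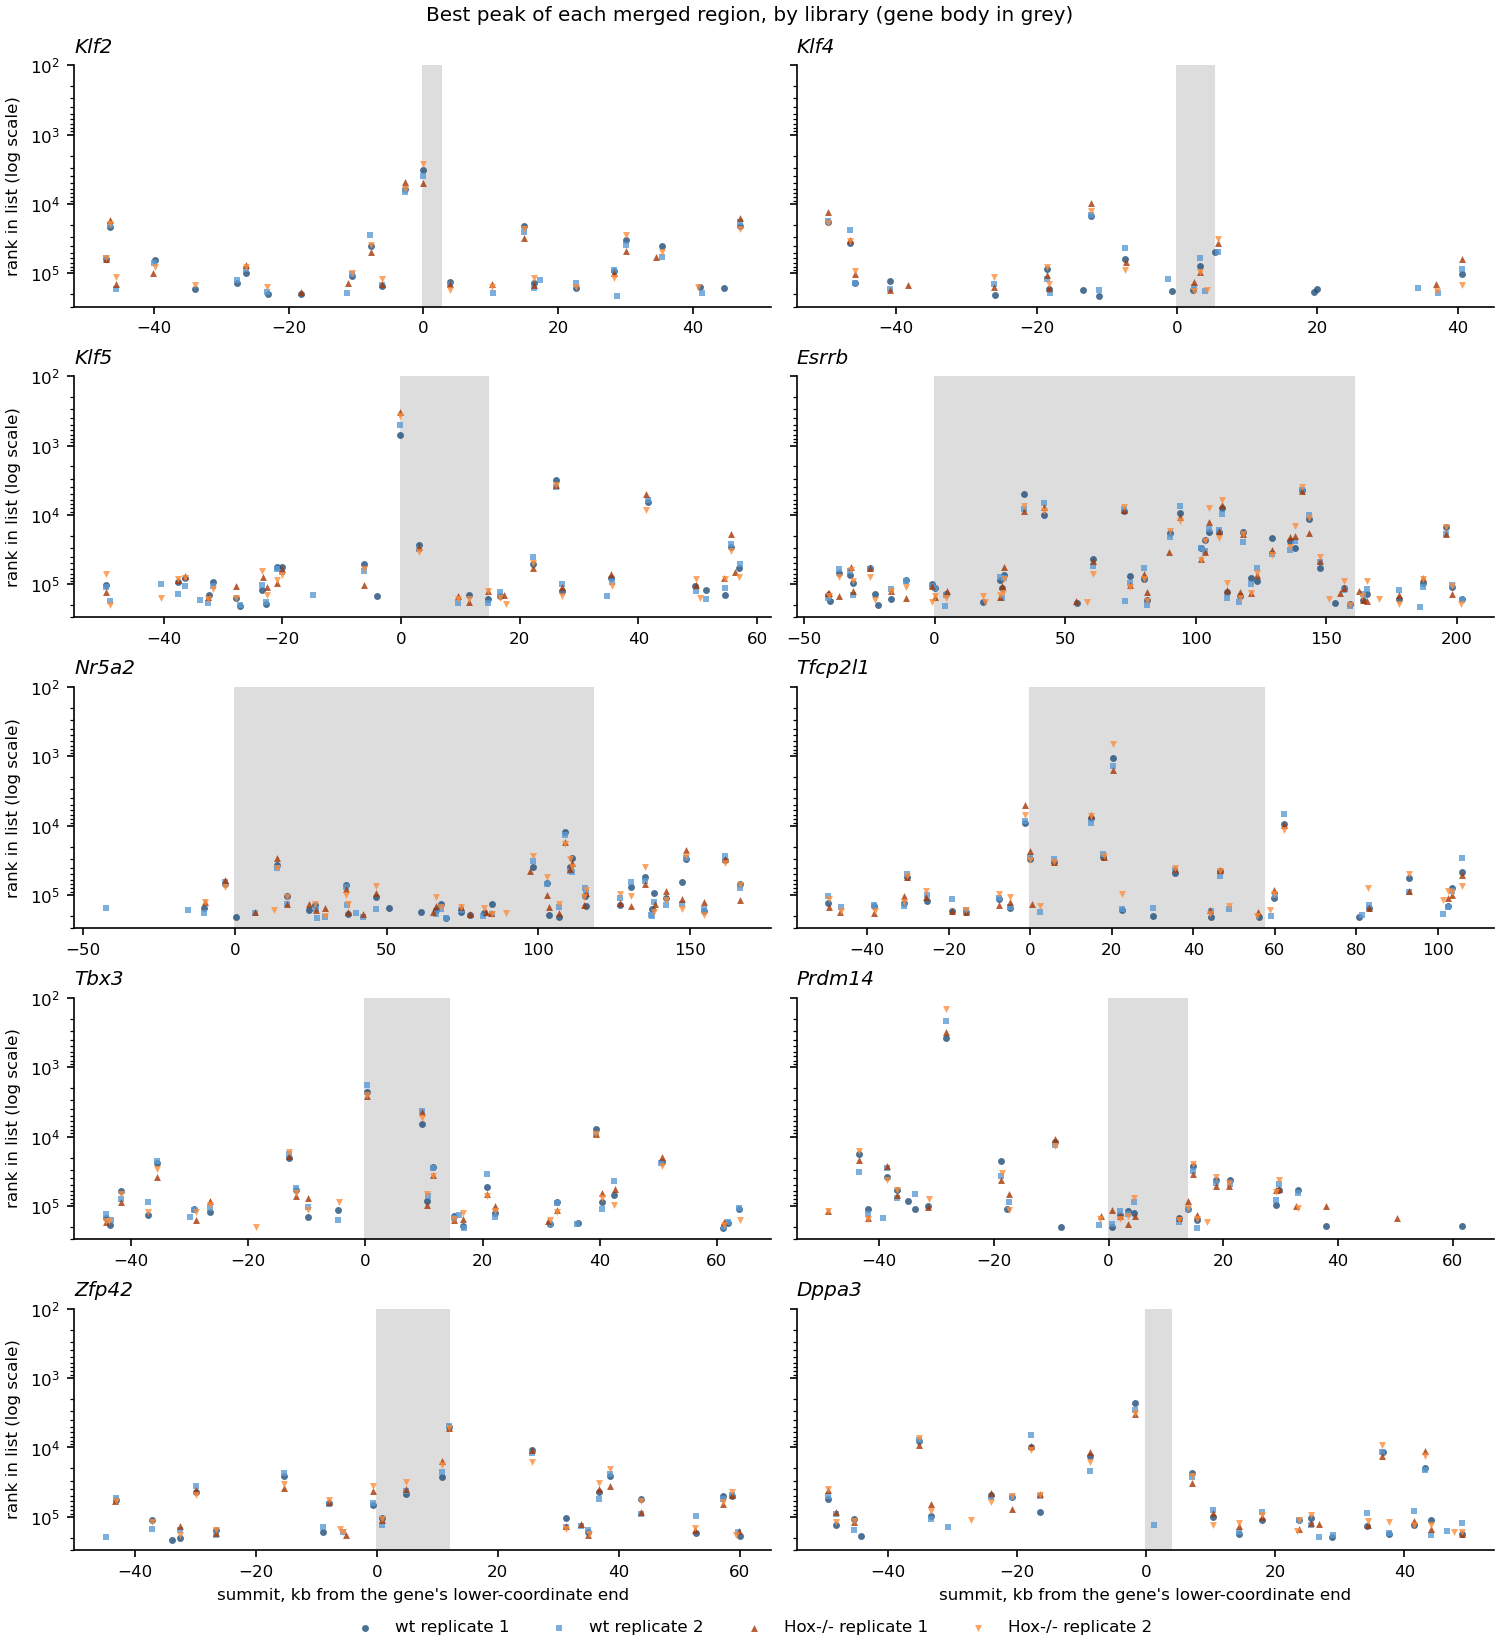
Best peak of each merged region at the 10 loci, as distance of its summit from the gene's lower-coordinate end (kb, horizontal) and rank in the list of its library (vertical, log scale, strongest at the top), with the gene body in grey. The strongest region is that below Prdm14, at ranks 145 to 381 in the 4 libraries.

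The 3 Krüppel-like factors, zinc finger proteins with overlapping roles in self-renewal, had unlike patterns of open chromatin. Klf5 had the strongest gene end of all 10 genes, at 99298280 to 99298864 on chromosome 14. It ranked 696 and 503 in wt and 334 and 374 in Hox-/-, with summits within 12 bp of each other. The best Klf2 peaks at a gene end ranked 3194 and 3961 in wt and 5027 and 2656 in Hox-/-, and lay over the start at 72318732 to 72319425 on chromosome 8. The end of Klf4 ranked 49847 and 48890 in wt and 36276 and 32028 in Hox-/-. It covered 55532165 to 55533585 on chromosome 4, and its summits were 418 bp apart. Klf4 was thus the weakest of the 3 at a gene end in every library, and its genotypes did not overlap.

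Distal peaks, those over 1 kb from either end of the gene, also differed among these factors. The best distal region of Klf4 lay 11.8 kb below the gene, at 55514676 to 55515343. Its ranks of 14865 and 14343 in wt and 9586 and 12448 in Hox-/- were better than those of the Klf4 gene end in each library. Elements downstream of Klf4, which is the lower-coordinate side, have been described as its enhancers in ES cells. Beyond the 50 kb window, a region 62.3 kb below Klf4 ranked 4490 and 5056 in wt and 4679 and 4236 in Hox-/-, the best within 100 kb. Klf2 had its best distal region 2.38 kb below the gene (72316044 to 72316683), at ranks 6050 and 6677 in wt and 4835 and 5995 in Hox-/-. At Klf5 the best was 10.9 kb above the gene (99324299 to 99325243), at ranks 3182 and 3999 in wt and 3765 and 3764 in Hox-/-. For Klf5 the gene end was therefore stronger than any distal peak in all 4 libraries, and for Klf4 the reverse held.

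Esrrb and Nr5a2 are orphan nuclear receptors that bind closely related DNA motifs. The Esrrb locus had the most peaks of the 10, at 75 and 69 in wt and 59 and 64 in Hox-/-, in the longest window (261 kb). Neither end of the annotated Esrrb gene carried a strong peak. The best gene-end peak of each library ranked 99525 and 106787 in wt and 107007 and 146334 in Hox-/-. That of Hox-/- replicate 2 lay at 86360985 to 86361284, and those of the other libraries at 86359840 to 86360392. Both of these regions ranked higher in both wt libraries than in both Hox-/- libraries. Within the gene body, in contrast, 8 regions were among the strongest 10% of peaks in all 4 libraries. The best was at 86501517 to 86502301 on chromosome 12, with ranks of 4376 and 4308 in wt and 4578 and 3975 in Hox-/-. Its summits agreed to within 6 bp, and the genotypes overlapped. Of all its peaks, 18.0% were among the strongest 10% of their list, the highest share among the 10 loci and the 77.5th percentile of protein-coding genes.

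Nr5a2 stood at the other end of this measure, with 2.22% of its peaks among the strongest 10%, the 18.7th percentile. A gene-end peak was listed in wt replicate 1 alone, at rank 207319 near the foot of that list. The best region of the locus was 136951191 to 136951749 on chromosome 1, in the gene body. It ranked 12192 and 13519 in wt and 17388 and 18344 in Hox-/-, so that both wt libraries placed it higher. The 2 nuclear receptor genes thus shared open inner regions and poorly open annotated ends, and differed in the strength of their peaks.

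Tfcp2l1 encodes a factor of the CP2 family that acts downstream of LIF and Stat3. Its gene end, at 118627712 to 118628219 on chromosome 1, ranked 30248 and 28513 in wt and 22756 and 31096 in Hox-/-. A region in the gene body, at 118647762 to 118648470, was much stronger, with ranks of 1063 and 1362 in wt and 1550 and 672 in Hox-/-. A region at 118625295 to 118626854 lay 1.07 kb below the gene, just outside the limit for a gene end. It ranked 9245 and 8546 in wt and 5083 and 7063 in Hox-/-, higher in both Hox-/- libraries.

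Tbx3, a T-box factor, had a strong gene end at 119670256 to 119671182 on chromosome 5. The ranks were 2264 and 1802 in wt and 2573 and 2496 in Hox-/-, higher in both wt libraries. A region in its body at 119679736 to 119680461 ranked 6583 and 4335 in wt and 4472 and 5360 in Hox-/-, with overlapping genotypes. Annotated antisense transcripts (Tbx3os1 and Tbx3os2) share this locus, so a peak there cannot be given to Tbx3 alone.

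Prdm14, a PR-domain protein known for restraining Fgf signalling and DNA methylation in naive cells and for germ cell specification, had the strongest region of all 10 loci. It lay 27.8 kb below the gene at 13084619 to 13085623 on chromosome 1, outside any protein-coding gene. Its ranks were 381 and 219 in wt and 308 and 145 in Hox-/-, and its summits were within 10 bp. The best gene-end region of Prdm14, in contrast, ranked 26896 and 31088 in wt and 34655 and 24954 in Hox-/-. At both regions the genotypes overlapped.

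Zfp42, also called Rex1, is a zinc finger gene widely used as a marker of the naive state. The region over its start, 43306746 to 43307521 on chromosome 8, ranked 5066 and 4940 in wt and 5290 and 5167 in Hox-/-. The 4 values lay closer together than at any other best gene-end region, and both wt libraries still ranked higher. A region at 43305642 to 43306146, also counted to this gene end, ranked 26254 and 22247 in wt and 15804 and 17955 in Hox-/-. It was among the strongest 10% in both Hox-/- libraries, and in wt it was not.

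Dppa3, or Stella, a maternal protein that protects the oocyte-derived genome from loss of methylation, had no peak within 1 kb of either gene end in any library. Its best region was nonetheless close, 1.43 kb below the gene at 122624325 to 122624995 on chromosome 6. It ranked 2291 and 2877 in wt and 3281 and 3233 in Hox-/-, higher in both wt libraries. The Dppa3 window also holds Gdf3 and Apobec1 and shares 9 regions with the window of Nanog. Of the 10 genes, 8 had a gene-end peak in all 4 libraries, against 69.9% of protein-coding genes. With gene ends taken to 2.5 kb all 10 did, against 76.8%. With the 100000 strongest peaks of each list and ends of 1 kb 7 did, and the share of all genes was not counted there.

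The strongest peaks were compared first. Over the 10 loci, 45 regions were among the strongest 10% of peaks in at least 1 library, and 34 of them (75.6%, exact 95% binomial interval 60.5% to 87.1%) in all 4. Over all regions of this kind the share was 66.9%, which lies in that interval. None of the 45 belonged to both wt libraries only (4.38% of all such regions), and 1, at Zfp42, to both Hox-/- libraries only (1.28% of all such regions). Of the 34 shared regions, 4 were at ends of the listed genes, 12 in their bodies, 16 outside protein-coding genes, and 2 at an end or in the body of another gene. Of all 363 locus regions, 20 were at ends of the listed genes, 101 in their bodies and 206 outside protein-coding genes. The 4 gene ends were those of Klf2, Klf5, Tbx3 and Zfp42. The binomial intervals account for counting error alone, and regions close together share their source.

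**Figure D2:**
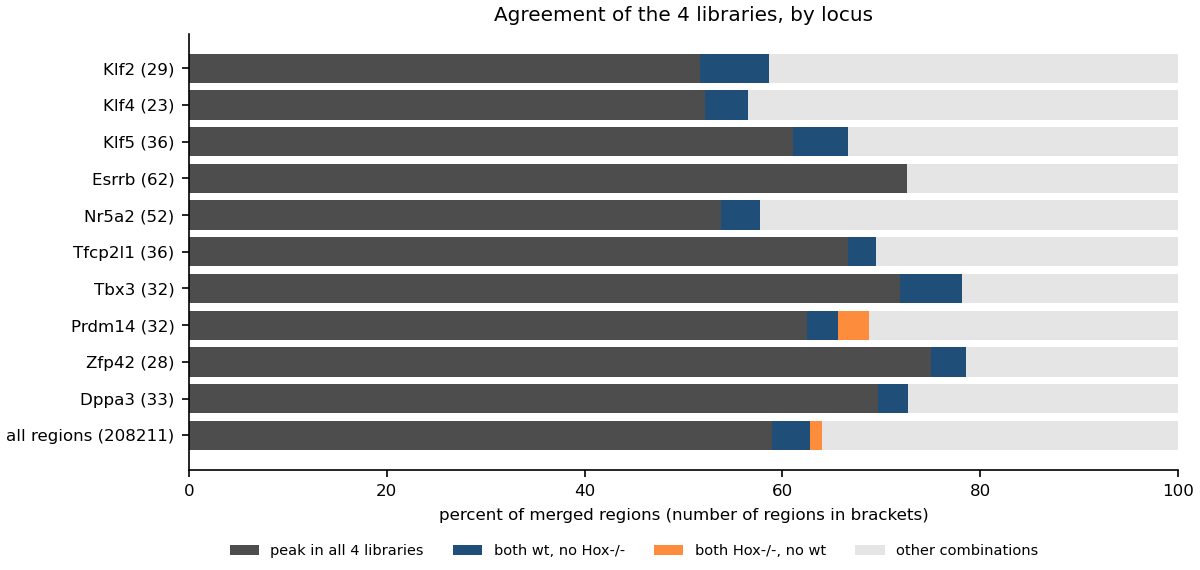
Share of the merged regions of each locus (percent, number of regions in brackets) with a peak in all 4 libraries, in both wt and no Hox-/- library, in both Hox-/- and no wt library, or in another combination. The share in all 4 ran from 51.7% at Klf2 to 75% at Zfp42, around the 59.0% of all regions.

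Agreement was then counted over every region, weak ones included. A peak was listed in all 4 libraries at 233 of the 363 locus regions (64.2%, exact 95% binomial interval 59.0% to 69.1%), against 59.0% of all regions. With the 100000 strongest peaks of each list the order turned, with 64.5% of 186 locus regions against 67.1% of all regions. By locus this share was 75% at Zfp42, 72.6% at Esrrb, 71.9% at Tbx3, 69.7% at Dppa3, 66.7% at Tfcp2l1, 62.5% at Prdm14, 61.1% at Klf5, 53.8% at Nr5a2, 52.2% at Klf4 and 51.7% at Klf2. With 23 to 62 regions per locus, the interval of Klf2 (32.5% to 70.6%) overlapped that of Zfp42 (55.1% to 89.3%). The median over protein-coding genes was 62.1%, with quartiles of 52.6% and 71.0%. All gene shares but those of Klf2, Klf4, Esrrb, Tbx3 and Zfp42 lay between these quartiles.

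Gene-end regions were in all 4 libraries in 15 of 20 cases and distal ones in 218 of 343. The exact binomial intervals of these shares, 50.9% to 91.3% and 58.2% to 68.7%, overlapped. Regions in all 4 libraries had a median rank of 75418, and those in other combinations, apart from regions of a single genotype, 164462. Missing calls were therefore found mainly among weak peaks. Of the 32 regions with a peak in exactly 3 libraries, 16 lacked one in Hox-/- replicate 1, against 45.4% of 22568 such regions in the genome.

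Few regions were called in 1 genotype only. A peak in both libraries of wt but none of Hox-/- was found at 13 regions, 3.58% of the 363, against 3.83% of all regions. They were spread over 9 of the loci, with none at Esrrb. The reverse held for 1 region, 0.275%, against 1.23% of all regions. All 14 were distal, as were 343 of the 363 locus regions. With the lists made equally long these numbers were 7 and 4 of 345 regions (background 2.72% and 2.01%). Since the rule then asks less, leaving out wt replicate 1 gave 37 and 5 of 348 regions, against 10.3% and 2.90% of all regions. Without wt replicate 2 there were 30 and 9 of 341 (background 9.65% and 3.08%). Without Hox-/- replicate 1 there were 17 and 16 of 355 (6.83% and 5.88%), and without Hox-/- replicate 2 30 and 9 of 350 (9.17% and 4.95%). The background thus moved with the counts.

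These regions of a single genotype were weak. The strongest was 33.5 kb below Prdm14, at 13079556 to 13079886 on chromosome 1, with ranks of 108805 and 67740 in wt and folds over background of 2.65 and 3.70. The region called only in Hox-/- was also at Prdm14, 48.7 kb below the gene at 13064470 to 13064681. Its ranks were 117942 and 118195, and its folds 2.84 and 2.84. It lay just inside the 50 kb limit, and a region 53.0 kb below Prdm14, just outside, ranked 11295 and 13030 in wt and 9289 and 16462 in Hox-/-. Klf2 had 2 wt regions, at 72291157 to 72291550 (ranks 136927 and 123231) and at 72360057 to 72360566 in Eps15l1 (155183 and 188873). Klf5 had 2 as well, at 99271381 to 99271648 (203285 and 197286) and 99349737 to 99350305 (120529 and 160944). The 2 at Tbx3 began at 119706620 (173349 and 181279) and 119732267 (174381 and 170434). Those at Nr5a2 began at 136912049 (209992 and 209946) and 136979825 (158142 and 197043). In Klf4, Tfcp2l1, Zfp42 and Dppa3 there was 1 each, at 55515864, 118657863, 43285854 and 122655163, with ranks between 137596 and 213101. Each of the 13 except that at Prdm14 ranked past 100000 in both wt libraries.

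**Figure D3:**
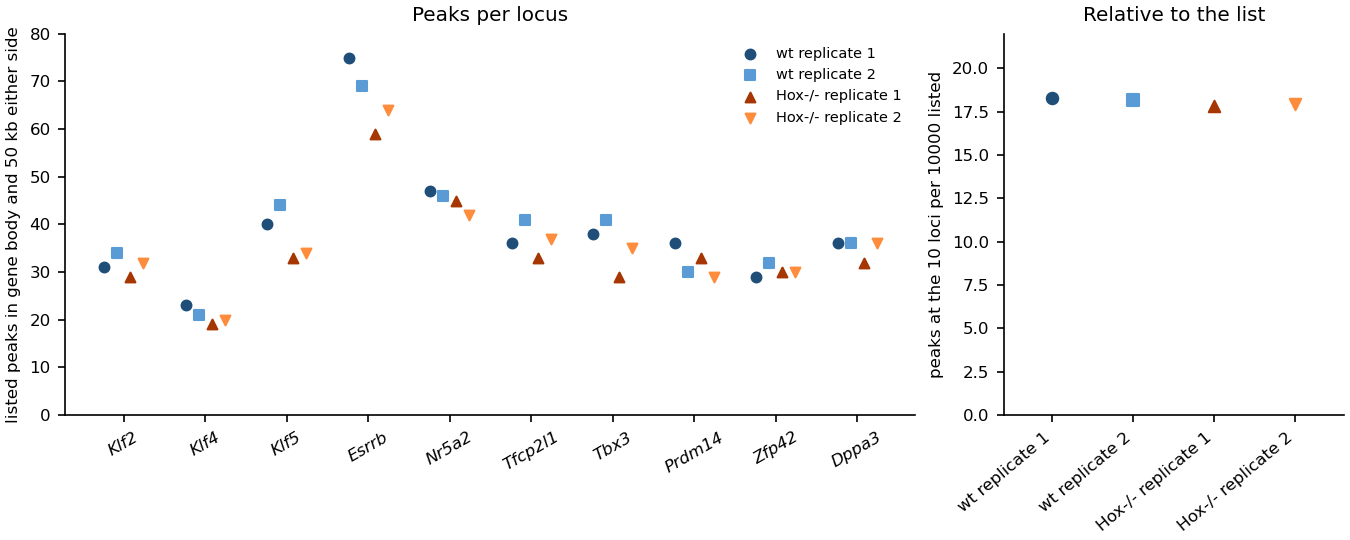
Left, number of listed peaks at each locus in each library. Right, peaks at the 10 loci per 10000 peaks in the list. The Hox-/- libraries had fewer peaks in sum (342 and 359 against 391 and 394), while relative to the lists the values were 17.8 to 18.3.

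The number of peaks at the loci was lower in Hox-/-, as was the length of the lists. In sum there were 391 and 394 peaks in wt (392.5 ± 2.12, SD, n = 2) and 342 and 359 in Hox-/- (350.5 ± 12.0, SD, n = 2). The difference of −42 had p = 0.33 in the exact permutation test, two-sided, the smallest p that 2 libraries against 2 allow, so no such test here can pass 0.05. Hox-/- had 10.7% fewer locus peaks than wt, and its whole lists were 8.96% shorter. Per 10000 listed peaks there were 18.3 and 18.2 in wt and 17.8 and 17.9 in Hox-/-. The lists give some intervals several lines, 1 for each summit. With such lines counted once there were 301 and 319 intervals in wt and 275 and 292 in Hox-/-, a difference of −26.5. With lists of equal length the difference was 0.5 peaks, and with the 100000 strongest peaks 4 peaks, now higher in Hox-/-. The direction thus depended on the list length.

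By locus, Hox-/- had fewer peaks without overlap at 5 of the 10, against 31.8% of protein-coding genes. These were Klf4 (23 and 21 against 19 and 20), Klf5 (40 and 44 against 33 and 34), Esrrb, Tbx3 (38 and 41 against 29 and 35) and Nr5a2 (47 and 46 against 45 and 42). The genotypes overlapped at Klf2 (31 and 34 against 29 and 32), Tfcp2l1 (36 and 41 against 33 and 37) and Zfp42 (29 and 32 against 30 and 30). They also overlapped at Prdm14 (36 and 30 against 33 and 29) and Dppa3 (36 and 36 against 32 and 36). With lines that share an interval counted once, the genotypes overlapped at Esrrb (53 and 52 against 50 and 54) and Klf5 (28 and 32 against 26 and 30). They no longer overlapped at Klf2 (23 and 25 against 21 and 22) and Zfp42 (26 and 28 against 23 and 24), so that 5 of the 10 were again lower in Hox-/-, against 24.8% of protein-coding genes in this counting. The difference at Esrrb went from −10.5 to −0.5 in this counting. With equal list lengths the differences at Klf2, Tfcp2l1, Zfp42, Prdm14 and Nr5a2 changed sign, so no direction is drawn for single loci.

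Most of these loci were rich in peaks for their length. Averaged over libraries, there were 33.7 peaks per 100 kb at Dppa3, 32.9 at Klf5, 31.3 at Tbx3, 30.7 at Klf2, 28.1 at Prdm14, 27.0 at Zfp42, 25.6 at Esrrb, 23.4 at Tfcp2l1, 20.7 at Nr5a2 and 19.7 at Klf4. The median of protein-coding genes was 14.6 and the upper quartile 21.8. Only Nr5a2 and Klf4 were below that quartile, at the 71.0th and 67.5th percentile. Per 100 kb, the median was 27.6 over the 10 genes and 31.0 over Pou5f1, Sox2 and Nanog. It was 24.8 over 20 other genes of the naive network and LIF signalling, and 20.5 over 15 formative and primed genes. Among markers of other cells it was 25.9 for trophectoderm, 17.8 for fibroblast and 13.8 for primitive endoderm genes. Such richness was thus not particular to the 10 loci. The windows of Klf4, Esrrb, Zfp42, Tbx3 and Nr5a2 contained no other protein-coding gene.

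Peaks near the gene's own ends were a small part of each locus. They made up 5.63% and 4.57% of the locus peaks in wt (5.10 ± 0.748%, SD, n = 2) and 5.85% and 5.57% in Hox-/- (5.71 ± 0.196%, SD, n = 2). The difference of 0.612 percentage points was below the SD in wt and above that in Hox-/- (exact permutation test, two-sided, p = 0.67). It was 1.14 points without wt replicate 1 and 0.0829 points without wt replicate 2. With the 100000 strongest peaks it was −0.128 points. Zfp42 had 5 gene-end peaks in each library, Klf5, Esrrb and Tbx3 2, and Klf2 1. Klf4 had 5 and 2 in wt and 3 and 5 in Hox-/-.

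**Figure D4:**
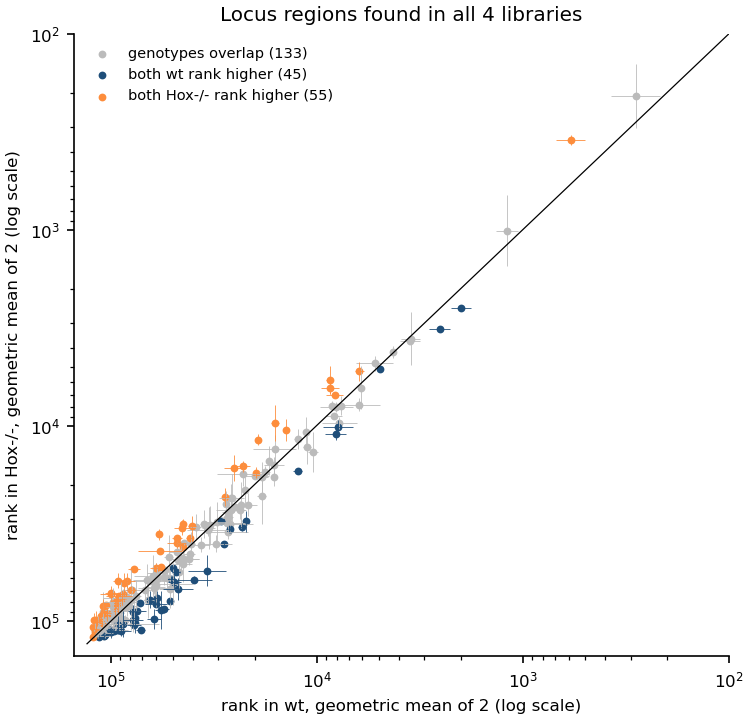
Rank of the 233 locus regions found in all 4 libraries, ranked among the 122787 such regions of the genome, in wt (horizontal) and Hox-/- (vertical), as geometric means on log scales. Lines span the 2 replicates of each genotype. Regions whose genotypes do not overlap lie on both sides of the diagonal, 55 higher in Hox-/- and 45 higher in wt.

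To compare strength on lists of the same length, the 122787 regions found in all 4 libraries were ranked anew among themselves. Of the 233 at these loci, 55 (23.6%) ranked higher in both Hox-/- libraries than in both wt libraries, against 20.5% of all such regions. In the other direction there were 45 (19.3%), against 20.3%. The median difference of log2 rank was 0.00 at the loci and 0.00 over all regions, with quartiles of −0.18 and 0.16 at the loci and −0.17 and 0.17 over all. Positive values mean a higher rank in Hox-/-. Replicates differed in size by a median of 0.16 in wt and 0.21 in Hox-/-, and libraries of different genotype by 0.19 to 0.24. Ranked by fold, the numbers were 69 and 41 of the same 233 regions (background 21.3% and 18.9%). The share higher in Hox-/- was then further above its background than in the ranking by −log10 p, and the cause was not tested. Since 3 libraries ask less, leaving out wt replicate 1 gave 88 and 81 of 241 regions (background 34.3% and 33.8%) and wt replicate 2 81 and 77 of 236 (34.5% and 33.9%). Without Hox-/- replicate 1 there were 99 and 87 of 249 (35.9% and 35.7%), and without Hox-/- replicate 2 88 and 88 of 237 (37.1% and 36.0%).

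Among regions that ranked higher in Hox-/-, the gene end of Klf5 had the widest difference, 0.74 in log2 rank (688 and 498 in wt against 330 and 370). Next came a region in Esrrb at 86466105 to 86466578, with 16606 and 15303 against 12050 and 7841 (0.71). A region 39.1 kb above Dppa3, at 122669372 to 122669807, had 18593 and 19838 against 11001 and 12626 (0.70). A Zfp42 gene-end region at 43294231 to 43294950 had 59072 and 56944 against 38200 and 33788 (0.69). The last of these 5, in Esrrb at 86498718 to 86499304, had 28268 and 22325 against 19107 and 14070 (0.62). In fold over background, the gene end of Klf5 had 14.6 and 15.5 in wt and 16.2 and 16.1 in Hox-/-.

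In the direction of wt the widest difference, −0.69, was 48.4 kb above Tfcp2l1 at 118733539 to 118734083, with ranks of 42029 and 27501 in wt against 45779 and 66119 in Hox-/-. A region 12.1 kb above Nr5a2, at 136972593 to 136973351, had 66537 and 56629 against 109598 and 86340 (−0.66). In Ncoa2, 18.8 kb above Prdm14, the region at 13145969 to 13146927 had 52176 and 57574 against 83095 and 90091 (−0.66). A region 6.17 kb above Tbx3, at 119690897 to 119691523, had 47735 and 32304 against 58563 and 63971 (−0.64). The region in Esrrb at 86385862 to 86386500 had 74900 and 68233 against 112694 and 108039 (−0.63). Esrrb thus had regions among the widest in both directions, and its 45 shared regions split into 8 higher in Hox-/-, 9 higher in wt and 28 with overlap.

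By locus the counts ran in both directions too. Higher in Hox-/- and higher in wt were 4 and 2 of 15 shared regions at Klf2, 4 and 2 of 12 at Klf4, 7 and 2 of 22 at Klf5, 7 and 5 of 24 at Tfcp2l1, 6 and 5 of 21 at Zfp42, and 5 and 2 of 23 at Dppa3. At Nr5a2 there were 5 and 5 of 28, at Prdm14 3 and 4 of 20, and at Tbx3 6 and 9 of 23. Over all shared regions the shares were 20.5% and 20.3%, and with so few regions a locus no difference from them is drawn. The median log2 rank difference was between −0.08 at Tbx3 and 0.11 at Tfcp2l1.

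Summit positions, which played no part in choosing the loci, were compared as well. At the 233 shared regions the best summits of the 4 libraries spanned a median of 27 bp, against 26 bp over all shared regions. In 203 of them (87.1%) the summits were within 150 bp, against 89.7% of all shared regions. Summit spread at the loci was thus close to that of the genome.

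Other genes of the naive network and of LIF signalling, and genes of the formative and primed states that follow it, were counted in the same way. All 20 of the former had a gene-end peak in all 4 libraries, among them Stat3, at ranks 1479 and 2363 in wt and 2719 and 2875 in Hox-/-, and Zfp281, at 2023 and 2445 against 2096 and 2408. Of the 15 formative and primed genes 14 did, Dnmt3a being the exception, against 69.9% of protein-coding genes. Among them, Dusp6 ranked 1101 and 854 in wt and 642 and 1304 in Hox-/-, and Etv5 1661 and 1411 against 2925 and 1175. Strong gene ends thus occurred in both lists. No gene of either list had a gene-end peak in 1 genotype only, and the share of all protein-coding genes that did was not counted. Shares of regions in all 4 libraries were 61.9% of 583 in the former and 65.4% of 356 in the latter, each within the interval given above for the 10 loci. At Pou5f1, Sox2 and Nanog the share was 69.1% of 94 regions. Regions of wt only numbered 18, 14 and 4 in these lists (3.09%, 3.93% and 4.26%, against 3.83% of all regions). Those of Hox-/- only numbered 7, 3 and 0, against 1.23% of all regions. Of 233 shared regions of the formative and primed genes 56 ranked higher in Hox-/- and 38 in wt, and of 361 of the naive network genes 72 and 73, against 20.5% and 20.3% of all shared regions. At Pou5f1, Sox2 and Nanog it was 19 and 8 of 65 regions (29.2% and 12.3%). Among markers of other cells, 5 and 15 of 53 regions at fibroblast genes (9.43% and 28.3%), 9 and 14 of 43 at primitive endoderm genes (20.9% and 32.6%) and 9 and 6 of 48 at trophectoderm genes (18.8% and 12.5%) ranked higher in Hox-/- and in wt. The part of such cells in the results at the 10 loci was not tested. These are descriptions, and no list was tested against another.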

How the data were processed

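ATAC-seq was done on mouse ES cells of 2 genotypes with 2 libraries each, grouped by the genotype label. The authors deposited a separate peak list for each library, not a pooled one. Per the submitters' processing notes, cutadapt 4.8, Bowtie2 2.5.0, Picard 2.18.2, bedtools 2.30.0, MACS2 2.2.9.1, deepTools 3.5.4 and the build mm10 were used. Their settings are not given in the sources used here. The deposited lists give each peak a fold (a ratio to background), a −log10 p, a −log10 q (lowest 1.30) and a score that is 10 times the −log10 q, which was not used. These values are the authors' own and served only to rank or filter peaks within a list. Lists without counts give no depth, and a shorter list limits what can be found.

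Peaks overlapping by at least 1 bp were merged over the 4 lists, and each line counted as a peak. Gene bodies and promoter sequences came from RefSeq (GRCm38.p6). The gene table has no strand, so both ends were used, and "below" and "above" mean lower and higher coordinates. Regions were analysed with Python 3.11.15, numpy 2.4.6, pandas 2.3.3 and scipy 1.17.1. Merging, agreement and rank order were tested on simulated data. Named regions are the best gene-end and distal region of each gene, regions of 1 genotype only, and the 5 widest rank differences in each direction. The regions of Klf4 and Prdm14 beyond their windows, at 118625295 below Tfcp2l1, and at 43305642 in Zfp42 were chosen after their values were seen. So were the genes Stat3, Zfp281, Dusp6 and Etv5. The genes and lists were chosen with earlier results of these data known. Alternatives varied the window, the gene-end distance, the list length, the counting of lines that share an interval, the −log10 q, the ranking, the overlap and the libraries.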

Additional observations from a re-analysis of the deposited data

How the results depend on the processing

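Of 86 alternative values of the 8 summary results, 52 kept their direction or stayed near the value given, 31 moved and 3 changed sign. The difference in locus peaks became 0.5 with equal list lengths and 4 with the 100000 strongest peaks, and that in gene-end share −0.128 points with the latter. With lines that share an interval counted once the former was −26.5. With windows of 20 kb there were 5 regions of wt only and 0 of Hox-/- only of 215, and 34 and 29 of 141 ranked higher in Hox-/- and wt. With 100 kb there were 5 of 547 of Hox-/- only and 69 of 336 ranked higher in wt. The shares over all regions were 3.83%, 1.23%, 20.5% and 20.3% for both windows. Regions of wt and of Hox-/- only numbered 7 and 4 of 345 with equal list lengths (background 2.72% and 2.01%) and 6 and 5 of 186 with the 100000 strongest peaks (2.33% and 2.10%), where 25 and 22 of 120 ranked higher in Hox-/- and wt (20.7% each). At a −log10 q of at least 5 there were 3 of 331 of Hox-/- only (1.00%). When a peak had to cover 50% of a region, 56.5% were in all 4 libraries (53.6%). Smaller windows and shorter lists hold fewer regions by construction. For the other changes the cause was not tested.

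Without 1 library at a time, the difference in peaks was −50.5 to −33.5, the share in all libraries 67.7% to 70.1% (63.6% to 66.0% of all regions), regions of wt only 17 to 37 (6.83% to 10.3%) and of Hox-/- only 5 to 16 (2.90% to 5.88%), those ranked higher in Hox-/- 81 to 99 (34.3% to 37.1%) and in wt 77 to 88 (33.8% to 36.0%), and the gene-end share 0.0829 to 1.14 points.

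Peak differences of single loci changed sign in 17 of 100 values. At equal list lengths they were 2 at Klf2, 1.5 at Tfcp2l1, 3 at Zfp42, 2 at Prdm14 and 3 at Nr5a2. With the 100000 strongest peaks they were 0.5 at Klf2 and Klf4, 2 at Klf5, 2.5 at Tfcp2l1, 2 at Zfp42 and 1.5 at Tbx3. Within 20 kb they were 2.5 at Zfp42 and 0.5 at Dppa3, and within 100 kb 0.5 at Dppa3. Prdm14 had 1.5 at the higher −log10 q and −5 to 1 without 1 library at a time, the 1 without wt replicate 1. Zfp42 had −2 to 1, the 1 without wt replicate 2.

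The ranks showed no sign that the replicate numbers pair the libraries: over 122787 regions the between-replicate differences in log2 rank correlated at 0.00402. This cannot show whether libraries of the same number were prepared together. With the replicate block, in which only libraries of the same number were compared, the difference in peaks was −42, that in gene-end share 0.612 points, regions of wt and Hox-/- only 13 and 1 of 363 (3.83% and 1.23% of all), and regions ranked higher in Hox-/- and wt 73 and 63 of 233 (28.3% and 27.9% of all).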
